A study of Sus scrofa with 74 samples.

Results

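The 26S proteasome degrades proteins that carry a chain of ubiquitin. Its 20S core is a barrel of alpha and beta rings that holds the cutting sites, and its 19S caps recognise the ubiquitin chain, unfold the protein with a ring of ATPases and feed it into the barrel. In skeletal muscle the ubiquitin-proteasome route removes a large part of the worn or surplus contractile protein, and ligases such as atrogin-1 (FBXO32) hand proteins to it when muscle wastes.

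The muscles compared were those of the pigs with the highest and the lowest level of PSMB4, a beta ring subunit with no cutting site of its own. They came from 74 F2 pigs bred from Duroc and Pietrain and slaughtered at about 110 kg. The muscle was the M. longissimus dorsi, which runs along the back, and its RNA was hybridised to 1 Affymetrix Porcine Genome Array per animal. The labels name no treatment. All animals were free of the RYR1 mutation that causes malignant hyperthermia and formed a single group of the study. They carried label numbers from 1 to 33 (24 animals) or from 60 to 114 (50 animals). Family, sex, carcass weight, slaughter date and drip loss of each pig are not among the labels used here, and since the study drew on full-sib families, many animals are full sibs that the tests treat as independent.

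Intensities were scaled so that the trimmed mean of every array was 500 and were taken to log2. Within each range of label numbers the third of the animals with the highest and the third with the lowest level of the PSMB4 probe set were taken. A probe set is the group of short oligonucleotides that reads one transcript. This gave 24 PSMB4-high animals (8 with label numbers from 1 to 33 and 16 from 60 to 114) and 24 PSMB4-low animals (8 and 16), so 48 of 74 animals, with 26 between them. On the log2 scale PSMB4 lay from 13.05 to 13.59 (median 13.32) in the PSMB4-high animals and from 12.74 to 13.01 (median 12.90) in the PSMB4-low animals. The animals between them lay from 12.92 to 13.17. These values chose the groups and are a description only. The groups are cut from a continuous range: at label numbers 1 to 33 the lowest PSMB4-high animal was at 13.054 and the next animal at 13.044, the highest PSMB4-low animal was at 12.910 and the next at 12.923. At label numbers 60 to 114 the corresponding pairs were 13.173 and 13.166, and 13.010 and 13.012. PSMB4 itself is left out of every count below.

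Of 11998 probe sets tested with limma, with the range of label numbers in the model, 820 (6.83%) were higher and 831 (6.93%) lower in the PSMB4-high muscles at an adjusted p under 0.05. Taken as genes, each by its brightest probe set, 473 of 4889 (9.67%) were higher and 281 (5.75%) lower, and the median difference of all genes was 0.02 on the log2 scale. The split depends on how arrays are put on a common scale. After quantile normalization 1017 probe sets were higher and 675 lower, and in the values as deposited, where the median of all probe sets differed by -0.17, 85 were higher and 1621 lower. All differences below are therefore relative to the level of the array, and a share called in a gene list is to be read against 9.67% higher and 5.75% lower.

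Of 4 measures of array level and RNA quality, 1 differed between the groups before adjustment. The trimmed mean of the arrays before scaling was 110.6 ± 25.1 (SD, n = 24) in the PSMB4-high and 124.1 ± 31.7 (SD, n = 24) in the PSMB4-low animals (two-sided permutation test within label ranges, p = 0.033, adjusted p = 0.13 over 4 measures). The array median after scaling (p = 0.16) and the ratios of 3' to 5' control probe sets for GAPDH (p = 0.18) and actin (p = 0.47), which rise when RNA is degraded, did not pass the test. Bright probe sets were called higher more often: 373 (15.5%) of the 2400 probe sets in the brightest 20% were higher and 92 (3.83%) lower, against 41 (1.71%) and 148 (6.17%) in the dimmest 20%. With the array level as a covariate, 422 probe sets were higher and 415 lower. Of the 473 genes called higher, 231 were also called then, as were 124 of the 281 called lower.

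Proteasome genes as a group were higher in the PSMB4-high muscles. Of 41 proteasome genes measured beside PSMB4, 21 were higher, none was lower, and 38 had a positive difference, with a median of 0.20 on the log2 scale. PSMB4 had been singled out because it was the gene closest to the other proteasome genes in these same animals, so the count describes the contrast and is no independent evidence that the complex moves as one. Of the 41 genes, 30 lie in the brightest 20% of probe sets, where 19 were higher, beside 15.5% of all probe sets there. With the array level as a covariate 20 of the 41 were higher, and after quantile normalization 21. In the values as deposited 2 were, with a median of 0.05 where that of all probe sets was -0.17.

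In the beta ring, which holds the cutting sites and PSMB4 itself, all 6 other measured subunits were higher, by 0.20 (PSMB7) to 0.37 (PSMB3). PSMB5, PSMB6 and PSMB7 are the subunits that cut, after hydrophobic, acidic and basic residues respectively, and they were higher by 0.24 ± 0.06 (SE, adjusted p = 0.0094), 0.22 ± 0.07 (SE, adjusted p = 0.021) and 0.20 ± 0.05 (SE, adjusted p = 0.0074). PSMB1, a structural subunit, ran from 12.62 to 13.61 (median 13.09) in the PSMB4-high animals and from 12.48 to 13.16 (median 12.77) in the PSMB4-low animals. The groups overlap, yet 22 of 24 PSMB4-high animals lay above the median of the PSMB4-low animals (difference 0.27 ± 0.05, SE, adjusted p = 0.00096). PSMB5 lay above all PSMB4-low animals in 14 of 24 PSMB4-high animals. The immunoproteasome subunits that interferon brings in to replace cutting subunits did not pass the test: PSMB8 differed by 0.20 ± 0.12 (SE, adjusted p = 0.27) and PSMB10 by 0.10 ± 0.13 (SE, adjusted p = 0.64). None of 16 interferon stimulated genes was called in either direction.

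In the alpha ring, the gate of the barrel, 4 of 7 subunits were higher. PSMA2 was higher by 0.30 ± 0.06 (SE, adjusted p = 0.0011), PSMA5 by 0.31 ± 0.07 (SE, adjusted p = 0.0035), PSMA7 by 0.25 ± 0.06 (SE, adjusted p = 0.0053) and PSMA4 by 0.20 ± 0.06 (SE, adjusted p = 0.021). The other 3 subunits, PSMA1 at 0.16, PSMA3 at 0.09 and PSMA6 at 0.09, had positive differences that did not pass (adjusted p from 0.13 to 0.56).

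Among the 19S ATPases, which unfold the substrate, 4 of 5 were higher by 0.17 (PSMC5) to 0.25 (PSMC1), and PSMC6 had a difference of -0.11 ± 0.12 (SE, adjusted p = 0.58). PSMC5 shows how narrow these ranges are: 12.52 to 12.98 (median 12.76) in the PSMB4-high against 12.28 to 12.85 (median 12.62) in the PSMB4-low animals. Here 22 of 24 PSMB4-high animals lay above the median of the others. PSMC2 has 3 probe sets, with differences from 0.07 to 0.21, and only the brightest was called.

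The largest differences in the complex were those of the 19S subunits without ATPase activity, of which 6 of 11 were higher. PSMD2, a scaffold of the cap, ran from 12.08 to 12.78 (median 12.40) in the PSMB4-high and from 11.54 to 12.48 (median 12.00) in the PSMB4-low animals, a 1.31-fold difference (0.39 ± 0.06 on the log2 scale, SE, adjusted p = 6.8e-05). All 24 PSMB4-high animals lay above the median of the PSMB4-low animals and 7 above every one of them. PSMD8, of the lid, ran from 12.34 to 12.86 (median 12.57) against 12.02 to 12.52 (median 12.33), and here 15 of 24 lay above every PSMB4-low animal (difference 0.25 ± 0.05, SE, adjusted p = 0.00073). PSMD3, also of the lid, was higher by 0.39 ± 0.08 (SE, adjusted p = 0.0014), PSMD4, a receptor for ubiquitin chains, by 0.38 ± 0.11 (SE, adjusted p = 0.014), PSMD6 by 0.26 ± 0.05 (SE, adjusted p = 0.0017) and PSMD1, the second scaffold, by 0.25 ± 0.06 (SE, adjusted p = 0.0044). PSMD14, the enzyme that cuts the ubiquitin chain off, differed by 0.15 ± 0.08 (SE, adjusted p = 0.19), and PSMD12, PSMD13 and SEM1 by 0.04 to 0.12 with no call. PSMD11 depends on the probe set: its brightest differed by 0.17 (adjusted p = 0.22), and the other 2 of its 3 probe sets were called, the largest difference being 0.47.

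Parts that are not built into the standard particle had smaller median differences. These were 0.02 for activators and inhibitor and 0.07 for assembly chaperones, beside 0.22 for core and cap genes. Among activators and the inhibitor, 1 of 5 was higher: PSME3, the nuclear PA28 gamma cap, by 0.23 ± 0.08 (SE, adjusted p = 0.033). PSME1 and PSME2, the PA28 cap that interferon induces, differed by 0.02 and 0.00, PSME4, the PA200 cap, by 0.01, and the inhibitor PSMF1 by 0.21 ± 0.08 (SE, adjusted p = 0.077). None of 5 assembly chaperones was called: PSMG1 differed by 0.20, PSMG3 by 0.08, PAAF1 by 0.07, PSMD10 by -0.11 and PSMD5 by -0.21. Of these other parts only PSMG1 and PSME4 lie in the brightest 20% of probe sets, where 19 of 30 proteasome genes were higher. In the next 20% 2 of 5 were, and in the 2 below 0 of 4 and 0 of 2. The difference between built-in and other parts, and the share of brightness in it, was not tested.

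**Figure D1:**
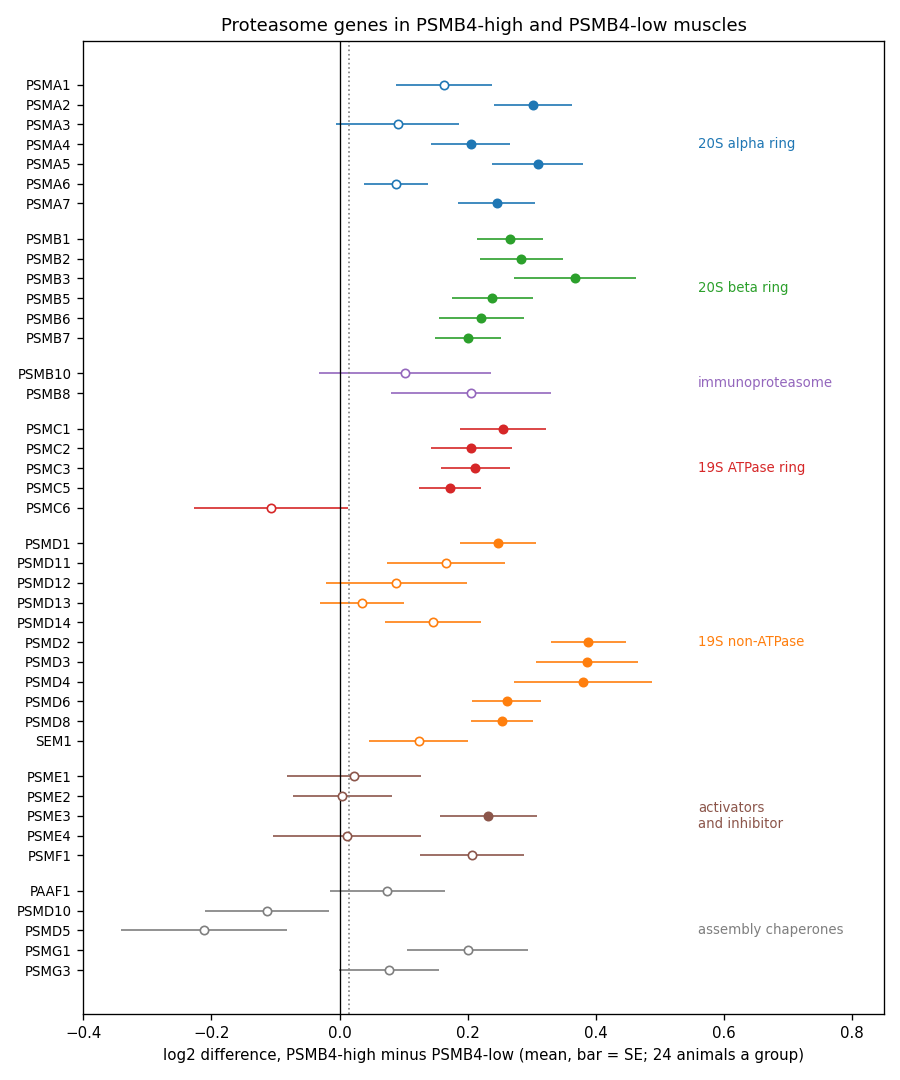
Difference between PSMB4-high and PSMB4-low muscles for 41 proteasome genes, on the log2 scale (horizontal axis), grouped by subcomplex; points are estimates from limma, bars are standard errors, filled points have an adjusted p under 0.05 and the dotted line is the median of all genes (0.02). Of these genes 21 are filled and all of those lie to the right of 0; the 6 beta ring genes are all filled, and the 5 assembly chaperones are all open.

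In the lists of the ubiquitin machinery upstream of the proteasome, 4.55% to 23.1% of genes were called higher, beside 9.67% of all genes. Of 22 E2 enzymes, which pass ubiquitin on, 1 was higher (UBE2J2, by 0.18 ± 0.06, SE, adjusted p = 0.045). Of 6 ubiquitin and E1 genes 1 was higher (UBB, a polyubiquitin gene, by 0.18 ± 0.06, SE, adjusted p = 0.027). The E1 genes among them, UBA2, SAE1, UBA3 and NAE1, activate the ubiquitin-like proteins SUMO or NEDD8, so no E1 of ubiquitin itself was tested. UBB shares its repeated coding sequence with other ubiquitin genes, so its probe set may read more than 1 of them. VCP, the ATPase that pulls ubiquitinated proteins out of complexes, was higher by 0.19 ± 0.05 (SE, adjusted p = 0.0078) and the other 7 genes of its list were not called. Of 13 genes of the COP9 signalosome and NEDD8 pathway, which switch cullin ligases, 3 were higher, with COPS3 at 0.34 ± 0.09 (SE, adjusted p = 0.0068), COPS7A at 0.26 ± 0.07 (SE, adjusted p = 0.0096) and ELOB at 0.18 (adjusted p = 0.025). With the array level as a covariate limma called neither UBE2J2 nor UBB (adjusted p = 0.18 for each). VCP (0.013), COPS3 (0.048) and COPS7A (0.043) were still called then. Neither UBE2J2 nor UBB was called without the 3 arrays that differed most from the mean of their label range.

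Of 9 genes measured of the atrophy list, 3 were higher. FBXO32, the muscle ligase atrogin-1, ran from 11.43 to 14.37 (median 13.50) in the PSMB4-high and from 10.97 to 14.01 (median 12.31) in the PSMB4-low animals, which overlap nearly throughout. It was higher by 0.88 ± 0.21 (SE, adjusted p = 0.0043), and both of its probe sets were called. Its difference was 0.15 at label numbers 1 to 33 and 1.24 at 60 to 114, but a difference between the ranges was not called (interaction, adjusted p = 0.54). FBXO31, another F-box protein, was higher by 0.43 ± 0.11 (SE, adjusted p = 0.0059) and STUB1, the ligase that works with heat shock proteins, by 0.25 ± 0.06 (SE, adjusted p = 0.0043). The transcription factors that drive atrogin-1 did not pass: FOXO1 differed by 0.14 and FOXO3 by -0.04, and myostatin (MSTN) by -0.40 ± 0.24 (SE, adjusted p = 0.27).

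Autophagy, the other route of protein removal, had 5 of 19 genes higher and 2 lower. SQSTM1, the p62 receptor that binds ubiquitinated cargo, ran from 13.07 to 14.66 (median 13.75) in the PSMB4-high and from 12.38 to 14.04 (median 13.02) in the PSMB4-low animals. All 24 PSMB4-high animals were above the median of the PSMB4-low animals, and the difference of 0.67 ± 0.10 (SE, adjusted p = 6.9e-05) is 1.59-fold. Of 5 genes for the ubiquitin-like proteins that coat the forming vesicle 3 were higher, MAP1LC3A by 0.44, MAP1LC3B by 0.21 and GABARAPL2 by 0.21 (adjusted p from 0.005 to 0.025), while GABARAP was at 0.16 (adjusted p = 0.094) and GABARAPL1 at 0.03 (adjusted p = 0.9). WIPI1, which marks the forming vesicle, was higher by 0.47 (adjusted p = 0.011). In the other direction, BNIP3L, a receptor that marks mitochondria for removal, was lower by a difference of -0.64 ± 0.15 (SE, adjusted p = 0.0038) on its brightest probe set, the second being at -0.07 with no call. TAX1BP1, another cargo receptor, was at -0.34 ± 0.10 (SE, adjusted p = 0.022) on 1 of its 3 probe sets, the others reaching -0.04 with no call. Of 9 genes of cathepsins and of their inhibitors CST3 and CSTB, CTSK alone was called, and it was lower (-0.60 ± 0.15, SE, adjusted p = 0.0052). Of 6 genes of the calpain system, among them its inhibitor CAST, none was called.

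Of 27 heat shock genes 4 were higher and 1 lower. Of 7 small heat shock genes HSPB7 (0.79 ± 0.20, SE, adjusted p = 0.0066) and HSPB8 (0.38 ± 0.13, SE, adjusted p = 0.048) were higher, as were the co-chaperones DNAJB6 (0.26 ± 0.08, SE, adjusted p = 0.023) and CDC37 (0.15 ± 0.05, SE, adjusted p = 0.041). The other 5, HSPB1, HSPB2, HSPB3, HSPB6 and CRYAB, had differences of 0.15 to 0.27 that did not pass. HSPB7 was above the median of the PSMB4-low animals in all 24 PSMB4-high animals. HSP90B1, the chaperone of the endoplasmic reticulum, was lower (-0.33 ± 0.12, SE, adjusted p = 0.049). HSPA8, HSP90AA1 and HSP90AB1 differed by 0.03 to 0.05, HSP70.2 and DNAJB1 by 0.06, HSPH1 by -0.28 and DNAJA1 by -0.36, none of them called. None of 11 genes of the cytosolic chaperonin and prefoldin was called. Among 27 redox genes, many of them targets of NRF2, 4 were higher, led by GCLM, the regulatory subunit of glutathione synthesis (0.40 ± 0.12, SE, adjusted p = 0.016), and 2 were lower, TKT (-0.75 ± 0.22, SE, adjusted p = 0.018) and GSTA4 (-0.66 ± 0.16, SE, adjusted p = 0.0049).

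**Figure D2:**
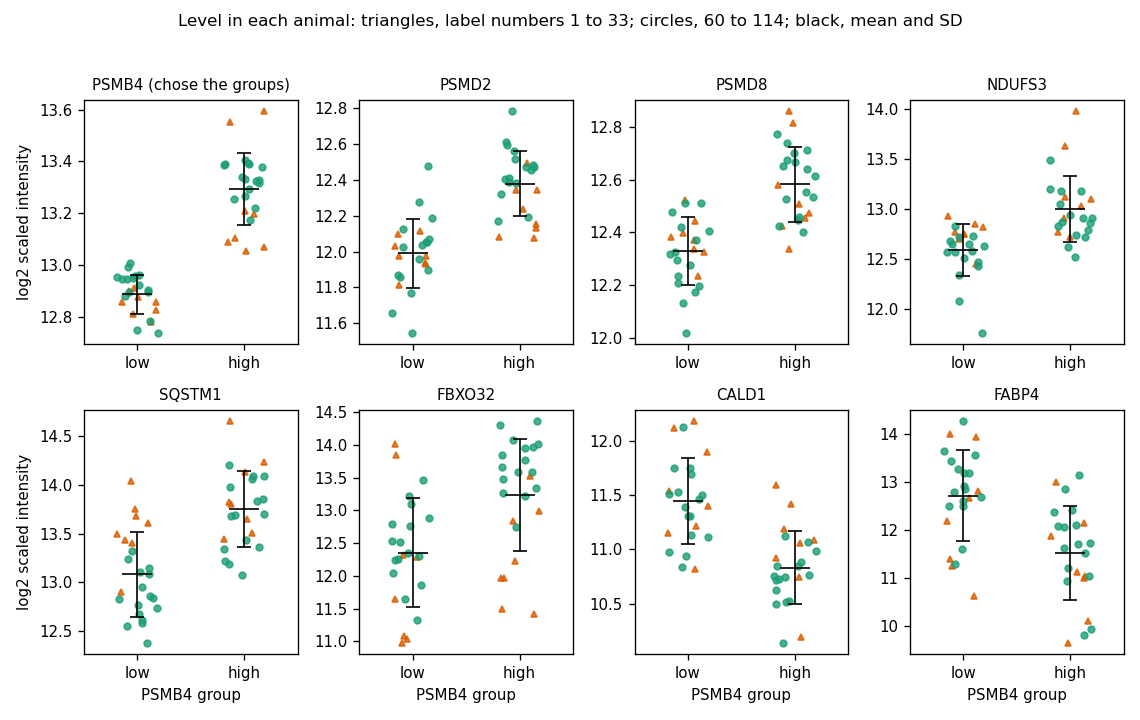
Level of PSMB4 and 7 other genes in each of the 48 animals (vertical axis, log2 scaled intensity), PSMB4-low on the left and PSMB4-high on the right of each panel; triangles are label numbers 1 to 33, circles 60 to 114, and black marks give the mean and SD of 24 animals. PSMB4 is separate because it chose the groups; the other genes overlap, PSMD8 least among the proteasome panels, with CALD1 and FABP4 lower in the PSMB4-high animals.

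Mitochondrial genes accompanied the proteasome. Complex I, which takes electrons from NADH, had the largest share of any list outside the proteasome called higher: 22 of 33 genes (66.7%), none lower, with a median of 0.26. NDUFS7 was highest at 0.48 ± 0.11 (SE, adjusted p = 0.0027), and NDUFB7 at 0.39 ± 0.08 (SE) had an adjusted p of 0.00096. NDUFS3 ran from 12.53 to 13.98 (median 12.91) in the PSMB4-high and from 11.76 to 12.94 (median 12.65) in the PSMB4-low animals (difference 0.41 ± 0.08, SE, adjusted p = 0.0011). In 11 of 24 PSMB4-high animals it lay above every PSMB4-low animal. One of its 3 probe sets differed the other way, at -0.22, without a call. Complex I genes are bright, 31 of 33 lying in the brightest 20%.

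In complexes II to V 11 of 27 genes were higher and 1 lower. ATP5L, a subunit of ATP synthase, had the lowest p outside the proteasome: it ran from 13.20 to 14.03 (median 13.59) in the PSMB4-high and from 12.88 to 13.64 (median 13.19) in the PSMB4-low animals, and all 24 lay above the median of the PSMB4-low animals (difference 0.38 ± 0.06, SE, adjusted p = 6.1e-05). It has 3 probe sets, with differences from 0.23 to 0.38, and 1 was called. COX5B of complex IV was higher by 0.35 ± 0.07 (SE, adjusted p = 0.0016) and SDHA of complex II by 0.37 ± 0.09 (SE, adjusted p = 0.0037), whereas COX6A1, the form of the subunit that tissues other than muscle use, was lower (-0.32 ± 0.11, SE, adjusted p = 0.048). The citric acid cycle had 6 of 18 genes higher, led by IDH3G (0.36 ± 0.06, SE, adjusted p = 0.00053), and fatty acid oxidation 5 of 20, among them CPT1B, the muscle gate for fatty acids into mitochondria (0.56 ± 0.15, SE, adjusted p = 0.0096), ACADVL (0.40 ± 0.09, SE, adjusted p = 0.0037) and ACADS (0.34 ± 0.08, SE, adjusted p = 0.0034). In the mitochondrial ribosome 14 of 57 genes were higher and none lower, with MRPL38 at 0.45 ± 0.08 (SE, adjusted p = 0.00069) and MRPL2 at 0.40 ± 0.08 (SE, adjusted p = 0.00081).

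The cytosolic ribosome was not called with them: 0 of 55 genes passed in limma in either direction, with a median of 0.01. After quantile normalization 4 of these were lower, and the median was -0.05. Translation factors went both ways, 4 of 33 higher and 3 lower. Within the factor eIF3 itself, EIF3I (0.36 ± 0.07, SE, adjusted p = 0.0012) and EIF3D (0.21 ± 0.07, SE, adjusted p = 0.025) were higher, and EIF3E (-0.41 ± 0.09, SE, adjusted p = 0.0036), EIF3H (-0.22 ± 0.07, SE, adjusted p = 0.032) and EIF3A (-0.22 ± 0.08, SE, adjusted p = 0.04) lower. EIF4G1, the scaffold of cap binding, was higher by 0.31 ± 0.06 (SE, adjusted p = 0.0013). With the array level as a covariate limma called 2 translation factors higher, EIF3I (adjusted p = 0.0091) and EIF4G1 (0.01), and 1 lower, EIF3E (0.028). Splicing factors had 7 of 43 genes higher and 2 lower, with SNRPB at 0.22 (adjusted p = 0.012) and SRSF11 at -0.30 (adjusted p = 0.012) on 1 of its 4 probe sets. With the array level as a covariate limma called 1 higher and 0 lower, with SNRPB at an adjusted p of 0.066 and SRSF11 at 0.055. Without the 3 arrays that differed most from the mean of their label range 4 were higher and 1 lower. Nuclear transport had 2 of 18 higher, the carriers NUTF2 (0.23, adjusted p = 0.0029) and KPNA1 (0.26, adjusted p = 0.012), and 2 lower, NUP155 (-0.25) and KPNB1 (-0.23), both with an adjusted p of 0.045.

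Of fibre type genes, 0% of the slow and 12.5% of the fast list were called higher, beside 9.67% of all genes. None of 9 slow fibre genes was called, with differences from -0.28 (CASQ2) to 0.11 (MYL2) and slow myosin MYH7 at 0.04. Of 8 fast fibre genes 1 was higher, the calcium pump ATP2A1 (0.37 ± 0.10, SE, adjusted p = 0.014), and the other 7 had positive differences of 0.13 to 0.23 that did not pass. The median of the 8 was 0.18, but 0.02 after quantile normalization and 0.05 with the array level as a covariate, where ATP2A1 was not called (adjusted p = 0.099). Glycolysis and glycogen genes had 2 of 19 higher, PFKM (0.22 ± 0.07, SE, adjusted p = 0.033) and GYS1, the muscle glycogen synthase (0.40 ± 0.11, SE, adjusted p = 0.011). ALDOC, the aldolase of brain that fat tissue also makes, was lower (-1.10 ± 0.27, SE, adjusted p = 0.0059). In calcium handling 2 of 12 genes were higher, HRC (0.36 ± 0.10, SE, adjusted p = 0.0087) and ORAI1 (0.31 ± 0.11, SE, adjusted p = 0.038). With the array level as a covariate limma called neither PFKM (adjusted p = 0.18) nor GYS1 (0.074), while 1 other glycolysis gene was higher. HRC (0.06) and ORAI1 (0.16) were not called then either, whereas ALDOC was still lower (0.012).

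**Figure D3:**
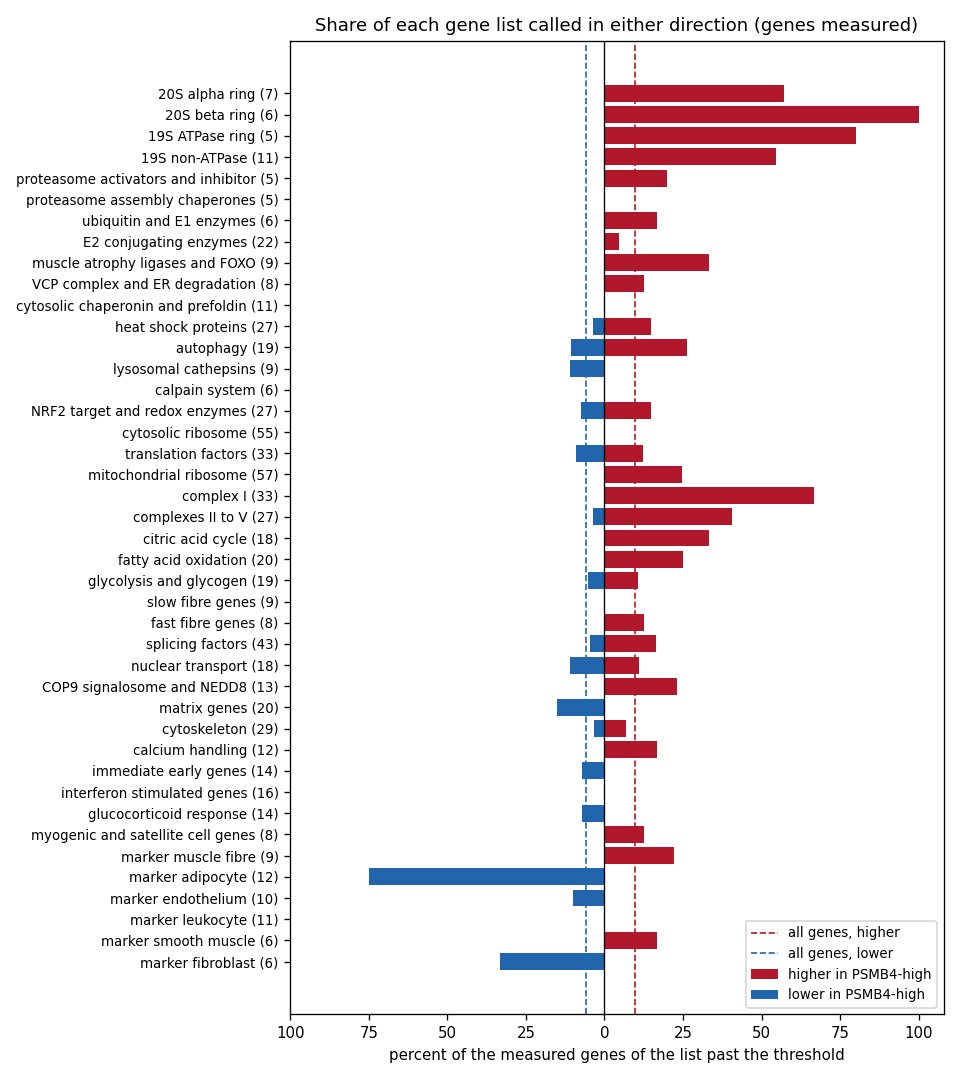
Share of the measured genes of each list (horizontal axis, percent) that were higher (red, to the right) or lower (blue, to the left) in PSMB4-high muscles at an adjusted p under 0.05, for lists with 5 or more measured genes (number in parentheses); dashed lines give the shares of all genes, 9.67% and 5.75%. Beta ring, 19S ATPase and complex I genes reach furthest to the right and adipocyte markers furthest to the left.

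Markers of fat cells were lower in the PSMB4-high muscles. Of 12 adipocyte markers 9 were lower, and the median of the 12 was -1.24 on the log2 scale, where the largest difference of any proteasome gene was 0.39. FABP4, the fatty acid carrier of fat cells, ran from 9.65 to 13.14 (median 11.66) in the PSMB4-high and from 10.63 to 14.26 (median 12.80) in the PSMB4-low animals. It was 2.28-fold lower (-1.19 ± 0.26, SE, adjusted p = 0.0024), with 3 of 24 PSMB4-high animals above the median of the others. ADIPOQ (-1.39), which encodes the hormone adiponectin, PPARG (-1.71), the master regulator of fat cells, LPL (-0.75) and the fat-making SCD (-1.59) and FASN (-1.38) were lower with an adjusted p from 0.0032 to 0.019. CFD and PNPLA2 differed by -0.01 and 0.16, and RBP4 by -0.75 ± 0.38 (SE, adjusted p = 0.18).

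Summed over the 13 adipocyte markers on the array, the scaled intensity ran from 9711 to 51244 (median 18819) in the PSMB4-high and from 13036 to 105024 (median 34440) in the PSMB4-low animals, with no marker at the floor in any animal. In a piece of muscle, fewer fat cells and less of their RNA per cell cannot be told apart. The sum over 9 muscle fibre markers ran from 304678 to 484133 (median 364162) against 238450 to 408247 (median 335575). All 9 muscle fibre markers had positive differences, and CKMT2 (0.32 ± 0.08, SE, adjusted p = 0.0091) and TCAP (0.28 ± 0.09, SE, adjusted p = 0.026) were called. The median of the 9 was 0.17, but 0.02 after quantile normalization and 0.05 with the array level as a covariate. Among 11 leukocyte markers and 3 erythroid markers none was called. Of 10 endothelial markers only ERG was called, and it was lower (-0.44 ± 0.12, SE, adjusted p = 0.0099). Of the 10, 5 had positive and 5 negative differences, with a median of -0.003. Of 3 nerve markers only S100B, which fat cells also make, was called, and it was lower (-0.35 ± 0.12, SE, adjusted p = 0.044). The other 2 had positive differences, and the median of the 3 was 0.29.

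Connective tissue genes leaned the same way. All 20 matrix genes had negative differences, with a median of -0.30, and 3 passed: LAMB1, a laminin of the basement membrane (-0.55 ± 0.11, SE, adjusted p = 0.0014, its second probe set at -0.18 with no call), LUM, a collagen-binding proteoglycan (-0.60 ± 0.15, SE, adjusted p = 0.0068), and COL1A2 (-0.53 ± 0.18, SE, adjusted p = 0.036). Of 6 fibroblast markers LUM and FAP (-0.65 ± 0.15, SE, adjusted p = 0.0036) were lower. The summed fibroblast markers ran from 12994 to 26098 in the PSMB4-high and from 11675 to 34776 in the PSMB4-low animals, which overlap widely. Of 29 cytoskeleton genes 2 were higher, TUBB4B and DES, and 1 was lower, and of 6 smooth muscle markers DES, which muscle fibres also make, was higher and none lower. CALD1, caldesmon, an actin-binding protein that is in neither list, had the lowest p of all genes lower (-0.61 ± 0.10, SE, adjusted p = 0.00021), running from 10.14 to 11.59 (median 10.80) against 10.82 to 12.18 (median 11.43), and both of its probe sets were called. In 12 of 24 PSMB4-high animals CALD1 lay below every PSMB4-low animal. MYL6, a light chain of nonmuscle myosin, was the cytoskeleton gene that was lower (-0.50 ± 0.12, SE, adjusted p = 0.0051), and no PSMB4-high animal lay above the median of the others.

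The remaining genes of lowest p are of mixed kinds. Higher in the PSMB4-high muscles were NDRG2 (0.70 ± 0.11, SE, adjusted p = 0.00016), ENTPD4, a nucleotidase of Golgi and lysosome (0.55 ± 0.09, SE, adjusted p = 0.00016), the tubulin gene TUBB4B (0.55 ± 0.09, SE, adjusted p = 0.00021) and IKBKG, the ubiquitin-binding subunit of the IKK complex (0.53 ± 0.09, SE, adjusted p = 0.00021). Also higher were SNX21 (0.55), GSTZ1 of tyrosine breakdown (0.41), KLC1, a kinesin light chain (0.31), and the loci LOC100156879 (0.63) and LOC100525869 (0.51). The study names the probe set of LOC100525869 as CYC1, cytochrome c1 of complex III, which was not counted among the genes of complexes II to V. KLC1 was above every PSMB4-low animal in 14 of 24 PSMB4-high animals on its brighter probe set, while its second probe set was at 0.02 with no call. IKBKG likewise has a second probe set at 0.14 with no call, and the second, dimmer probe sets of GSTZ1, VCP, SFRP1 and EIF4G1 had the sign of the brighter one but were not called. Lower were NID2, a nidogen of the basement membrane (-0.66 ± 0.11, SE, adjusted p = 0.00029), MGST1, a microsomal glutathione transferase (-1.36 ± 0.24, SE, adjusted p = 0.00043), PELI1, a ubiquitin ligase of immune signalling (-0.50 ± 0.09, SE, adjusted p = 0.00069), and SFRP1, an antagonist of Wnt (-1.32 ± 0.26, SE, adjusted p = 0.0011). TSPAN12 (-0.61), FAM122B (-0.54), the zinc transporter SLC30A5 (-0.72), LYST of lysosome traffic (-0.57), LOC100154081 (-0.58) and GNAI1, an inhibitory G protein subunit (-0.71), completed the 12 lowest. Immediate early genes, which respond to handling and slaughter, had negative differences in 14 of 14, with 1 called, KLF4 (-0.49 ± 0.17, SE, adjusted p = 0.045). At label numbers 1 to 33 only 7 of 14 were negative (median -0.03), against 13 of 14 (median -0.33) at 60 to 114. Of 14 glucocorticoid response genes GADD45A was lower (-0.64 ± 0.22, SE, adjusted p = 0.04).

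Since fat markers moved with the groups, the fit was repeated with the mean z score of the adipocyte markers as a covariate, an alternative chosen after their values were seen. Genes called higher then numbered 188 of 4889 (3.85%), of which 176 were among the 473, and genes called lower 63 (1.29%), of which 54 were among the 281. Of the 41 proteasome genes 13 stayed higher, with a median of 0.16, all in the 20S core and the 19S subunits without ATPase activity. The beta ring kept 6 of 6, the alpha ring 3 of 7 and the 19S non-ATPase subunits 4 of 11, while the 19S ATPases kept 0 of 5 (median 0.15), as limma called them. PSMD2 was at 0.36 (adjusted p = 0.0035), PSMB1 at 0.27 (adjusted p = 0.012) and SQSTM1 at 0.55 (adjusted p = 0.007). Complex I had 7 of 33 genes higher, with a median of 0.21, and the mitochondrial ribosome 5 of 57. Complexes II to V had 3 of 27 higher, the citric acid cycle 1 of 18 and fatty acid oxidation 1 of 20, and SDHA (adjusted p = 0.054), CPT1B (0.1), ACADVL (0.069) and ACADS (0.056) were no longer called. In autophagy 1 of 19 genes was higher and 1 lower, with MAP1LC3A (adjusted p = 0.068), MAP1LC3B (0.27) and GABARAPL2 (0.09) no longer called. The heat shock genes HSPB7 (adjusted p = 0.097), HSPB8 (0.31), HSP90B1 (0.16), DNAJB6 (0.19) and CDC37 (0.13) were no longer called either. FBXO32 had a difference of 0.55 (adjusted p = 0.12). Among genes lower, CALD1 (-0.37, adjusted p = 0.024), NID2 (-0.35, adjusted p = 0.03) and MGST1 (-0.52, adjusted p = 0.023) were still called, TKT (-0.03), ALDOC (-0.09) and COX6A1 (-0.02) were not, and the median of the matrix genes was -0.08 where it had been -0.30.

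**Figure D4:**
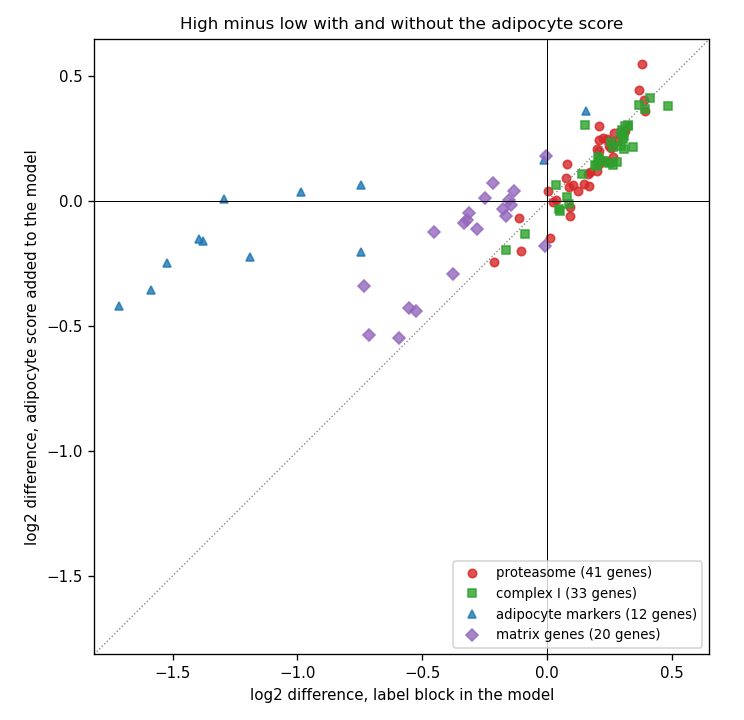
Difference between PSMB4-high and PSMB4-low muscles on the log2 scale for 4 gene lists, without (horizontal axis) and with (vertical axis) the adipocyte score in the limma model; each point is a gene and the dotted line marks equal values. Proteasome and complex I genes lie near the line, with medians of 0.16 and 0.21 after the score was added, whereas adipocyte markers, which make up the score, and most matrix genes move toward 0.

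The 2 ranges of label numbers allow the contrast to be read in separate animals. At label numbers 60 to 114 alone, 609 probe sets were higher and 742 lower. At label numbers 1 to 33, with 8 animals a side, limma called 0 in either direction, while 1087 probe sets (9.06%) had an unadjusted p under 0.05. Of the 609 called higher at 60 to 114, 523 (85.9%) had a positive difference at 1 to 33, where 47.1% of all probe sets did; of the 742 called lower, 631 (85.0%) had a negative one, beside 52.9% of all. The interaction of group and range in limma called 0 probe sets, with 863 (7.19%) at an unadjusted p under 0.05, which does not show that the ranges act alike. Proteasome genes had a positive difference in 34 of 41 at 1 to 33 (median 0.15) and in 37 of 41 at 60 to 114 (median 0.21), and complex I genes in 29 and 30 of 33. Since PSMB4 had been singled out in these same animals as closest to the other proteasome genes, the proteasome counts in each range are a description only. They are no independent evidence. Adipocyte markers had a median of -0.69 at 1 to 33 and -1.36 at 60 to 114.

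**Figure D5:**
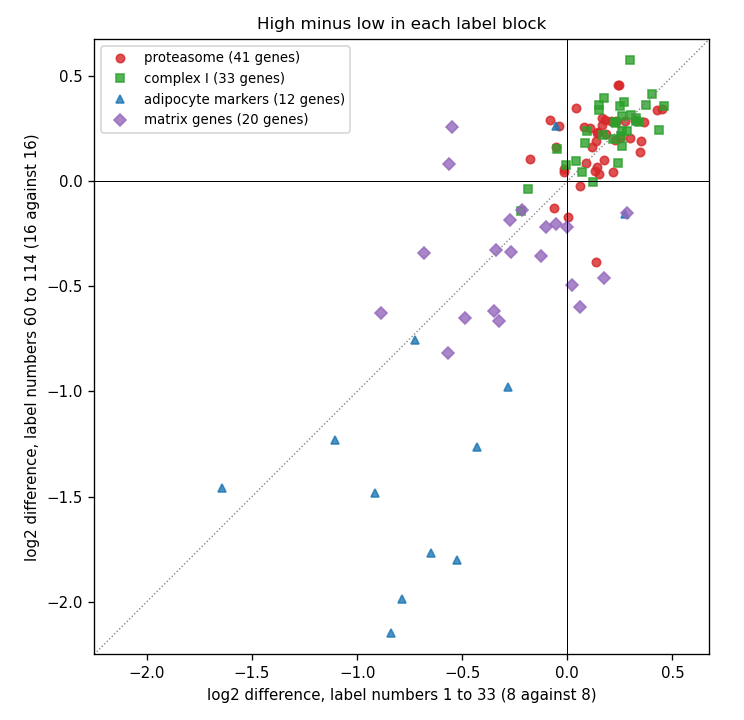
Difference between PSMB4-high and PSMB4-low muscles on the log2 scale at label numbers 1 to 33 (8 against 8 animals, horizontal axis) and 60 to 114 (16 against 16, vertical axis) for 4 gene lists; each point is a gene and the dotted line marks equal values. Proteasome and complex I genes lie mostly at positive values on both axes, 34 of 41 and 29 of 33 of them at label numbers 1 to 33, and adipocyte markers mostly at negative values. PSMB4 had been singled out in these same animals as closest to the other proteasome genes, so their position is a description only.

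In the 26 animals between the groups, which the contrast does not use, PSMB4 spans little of its range, and a fit on its level called 0 probe sets in limma, with 480 (4.00%) at an unadjusted p under 0.05. Of the 609 probe sets higher at 60 to 114, 350 (57.5%) had a positive slope there, beside 46.3% of all, and of the 742 lower 454 (61.2%) had a negative one, beside 53.7%. Of the 102 named genes called in the contrast, 38 had a slope of the opposite sign in these animals, none of them called. FBXO32 (-0.31), PSMB3 (-0.28) and NDUFS3 (-0.16, all per SD of PSMB4 on the log2 scale) were among them.

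As to single arrays, 3 stood apart from the others of their label range, 1 PSMB4-high and 2 PSMB4-low animals. Without them 613 probe sets were higher and 536 lower, of the genes called 344 of the 473 higher and 173 of the 281 lower were called again, and 19 proteasome genes, 19 complex I genes and 9 adipocyte markers passed.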

How the data were processed

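The deposited table holds linear intensities, 1 column per animal, made by the authors from Affymetrix arrays with GCOS 1.1.1 (scaling to a target of 500), MAS5 present calls and PLIER per the methods. Which algorithm gave the deposited intensities is not stated, and the arrays are not at the target (trimmed means from 50.3 to 183). Arrays were therefore rescaled to a mean of 500, trimmed by 2% at each end, floored at 1 and taken to log2. Probe sets in the upper 50% by median (11999 of 23999, controls left out) stood in for present calls; no kept value lay at the floor. GEO's platform annotation gives 10069 probe sets 1 symbol, 198 several and 13732 none. The number of arrays limits the precision, and intensities of different probe sets are not compared.

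The contrast was fitted with limma 3.58.1 (R 4.3.3), with the range of label numbers as a covariate, with p-values adjusted by Benjamini-Hochberg over all 11998 probe sets. The labels do not say what the ranges stand for. Family, sex, weight and slaughter date, which the authors adjusted for, could not be entered, so p-values treat related animals as independent. Array measures were tested by 100000 permutations within ranges. The fit was tested on simulated data. Tables were made with Python 3.11.15, numpy 2.4.6 and pandas 2.3.3.

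The groups and the 46 gene lists were chosen with earlier results of these data known. Named are all measured proteasome genes, the 12 genes of lowest p in each direction outside the proteasome and up to 2 genes in each direction per list; other list members were chosen after their values were seen. Alternatives changed the scaling, the pseudocount, the filter, the covariates, the share of animals taken and the animals used. No sequences were used.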

Additional observations from a re-analysis of the deposited data

How the results depend on the processing

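The counts of probe sets higher, probe sets lower and proteasome genes higher (820, 831 and 21) stayed within 1.5 times under quantile normalization, a pseudocount of 16, no filter, a stricter filter, only label numbers 60 to 114, smaller or larger shares of the animals taken, groups chosen again after quantile normalization, 3' to 5' ratios as covariates, eBayes with trend, and the array median as a covariate. Values as deposited gave 85, 1621 and 2, the array level as a covariate 422 and 415, and no term for the label range 489 and 469. PSMB4 as a continuous covariate in all animals gave 1870 and 2257, and the adipocyte score 312, 196 and 13. Leaving out the 3 arrays that differed most from the mean of their label range gave 536 lower. Only label numbers 1 to 33 gave 0, 0 and 0, with fewer animals, and the animals between the groups 0, 0 and 0. The adipocyte, 3-array and array-median settings were chosen after the data were seen, and the causes of these changes were not tested.

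Of 102 named genes called, 102 kept their call with a pseudocount of 16, 96 after quantile normalization, 77 with the array level and 53 with the adipocyte score as a covariate. In the values as deposited 51 kept it, without a term for the label range 79, and at label numbers 1 to 33 alone, with fewer animals, 0. In the animals between the groups 38 changed sign, none of them called there. Their slopes per SD of PSMB4 on the log2 scale, against higher calls, were FBXO32 -0.31, PSMB3 -0.28, ACADVL -0.27, NDRG2 -0.21, NDUFS3 -0.16, LOC100525869 -0.12, PSMD1 -0.11, GCLM -0.095, PSMD3 -0.089, IDH3G -0.088, PSMD6 -0.071, PSMC5 -0.068, SNRPB -0.066, COX5B -0.048, PSMA7 -0.0395, KLC1 -0.024, GYS1 -0.0096 and COPS7A -0.0048, and against lower calls ALDOC 0.49, SFRP1 0.43, SLC30A5 0.40, KLF4 0.33, FABP4 0.27, S100B 0.22, TAX1BP1 0.20, NUP155 0.20, BNIP3L 0.19, COX6A1 0.17, LYST 0.13, HNRNPH1 0.096, GNAI1 0.093, FAM122B 0.078, GSTA4 0.076, KPNB1 0.04, TSPAN12 0.029, MGST1 0.025, SRSF11 0.0066 and EIF3E 0.0059. KLF4 also changed sign at label numbers 1 to 33 (0.14). No paired analysis was possible because the label numbers are unique to 1 animal each.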
